A study of Danio rerio with 9 samples.

Results

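The 9 genes described here code for inhibitors of mitogen-activated protein kinase (MAPK) signalling, and their mRNA was measured in zebrafish larval liver exposed to metronidazole. They are the dual-specificity phosphatase genes dusp1, dusp2, dusp4, dusp5 and dusp6, the sprouty genes spry1, spry2 and spry4, and the sprouty-related gene spred1. They were taken by gene name from a table of 32520 genes, each name matched 1 row, and all 9 were among the 16766 genes that passed the filter on low counts. Livers were dissected from wild-type larvae after 24 h of treatment, and their poly A RNA was sequenced. There were 3 libraries from larvae given vehicle, 3 at a metronidazole dose of 1 mM and 3 at a dose of 10 mM. Larvae that express a bacterial nitroreductase in chosen cells convert metronidazole to a cell toxin, and no group here is labelled as carrying such a transgene. The labels give neither the age, strain and sex of the larvae nor the number of livers per library.

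In the best known MAPK cascade, a growth factor activates a receptor tyrosine kinase, Ras, Raf and MEK pass the signal on, and the kinase ERK then phosphorylates transcription factors in the nucleus. The p38 and JNK kinases form parallel branches that respond to stress. Dual-specificity phosphatases of the kind listed above remove the activating phosphates from MAPKs, and sprouty and spred proteins act further upstream, between the receptor and Raf. Several of these genes are themselves switched on by MAPK signalling and so form negative feedback loops.

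In livers at 10 mM, relative to vehicle, dusp1, dusp2, dusp4 and spry4 rose, between 2.60-fold and 8.37-fold, and 0 of the 9 genes fell (edgeR quasi-likelihood test, Benjamini-Hochberg adjustment over all tested genes, threshold 0.05). The 4 of 9 that rose stand beside 9.74% of all tested genes that rose and 17.2% that were called in either direction. The 9 genes were chosen with earlier results of these data known. At an unadjusted p under 0.05 there were 5 higher and 1 lower, beside 5044 of 16766 tested genes in either direction. DESeq2 called 4 higher and 1 lower, beside 3520 of all tested genes. The same 4 genes were higher at 10 mM than at 1 mM and 0 were lower, beside 9.39% and 9.41% of all tested genes. In that comparison 6 were higher and 1 lower at an unadjusted p under 0.05, beside 5183 of all tested genes. DESeq2 called 5 higher and 0 lower there, beside 3725 of all tested genes. At 1 mM against vehicle 0 of 9 were called, beside 0.984% of all tested genes. The median log2 fold change of the 9 genes was 0.96 at 10 mM and 0.24 at 1 mM, both relative to vehicle, where that of all tested genes was -0.03 and 0.01. For 10 mM relative to 1 mM these medians were 0.72 and -0.04. These comparisons share their libraries in pairs and are not independent of each other.

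Total counts ranged from 30 to 41.3 M per library. By the column names, 10 mM replicate 3 came from lane 8 and the other 8 libraries from lane 7, so that values without it are the values within 1 lane. The library that stood apart was 1 mM replicate 3, which scored -76.8 on principal component 2 (variance share 17.4%), where the scores of the remaining 8 ran from -5.99 to 26.6. Of the hepatocyte markers, 9 of 9 were detected and 0 passed the test at 10 mM against vehicle; their summed level was 74685 to 84747 CPM (counts scaled to the same library total) at 10 mM and 87919 to 94084 CPM in vehicle. The summed level of 7 macrophage markers was 48.7 to 57.0 CPM at 10 mM and 36.4 to 42.8 CPM in vehicle, with marco higher (log2 0.74, SE 0.13, adjusted p = 0.00169). The 6 matched stellate cell markers summed to 57.0, 62.6 and 124 CPM in 10 mM replicates 1, 2 and 3, and to 52.7 to 66.3 CPM in vehicle. Only 10 mM replicate 3 lay above the vehicle range. Of these markers pdgfrb was called higher, with 16.2, 18.8 and 14.6 CPM in the same 10 mM libraries. The summed levels of 7 exocrine pancreas markers (6011 to 12389 CPM at 10 mM, 5170 to 11178 CPM in vehicle) and 7 endothelial markers (222 to 226 CPM at 10 mM, 227 to 238 CPM in vehicle) each had 0 called members at 10 mM against vehicle, and 1 intestine marker was at 0 in every library. Between 10 mM and 1 mM, marco (log2 0.51, adjusted p = 0.0148) and the biliary marker epcam (0.60, adjusted p = 0.0313) were higher, and the hepatocyte marker ttr (-0.52, adjusted p = 0.0264) and the endothelial marker tie1 (-0.59, adjusted p = 0.0228) were lower. The part of these cell types in the results below was not tested.

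**Figure D1:**
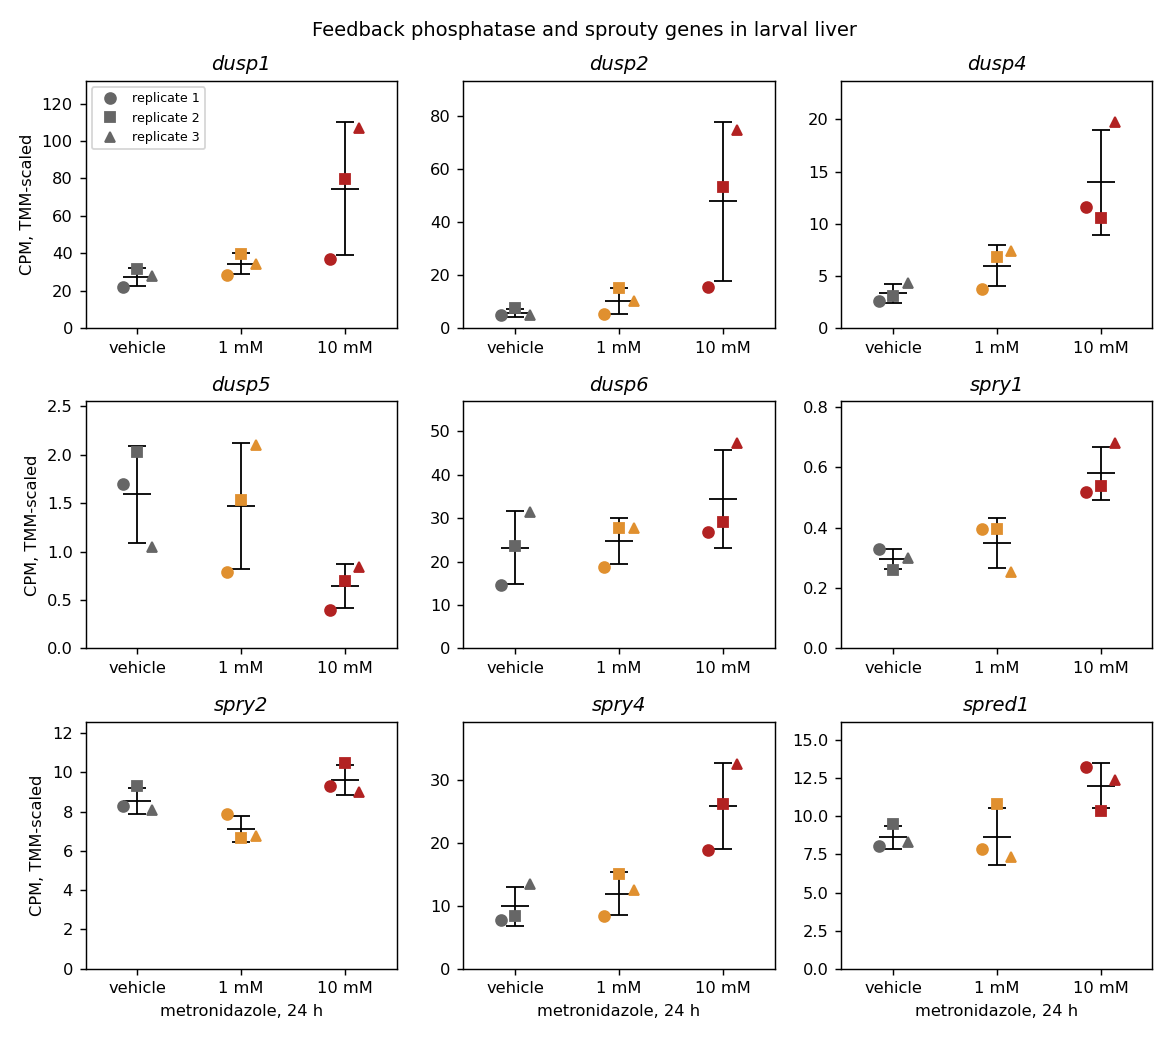
Level of each of the 9 genes (CPM on TMM-scaled library sizes, vertical axis from 0) in livers of larvae kept in vehicle, 1 mM or 10 mM metronidazole. Points are libraries, with a symbol for each replicate number, and bars are the mean ± SD of 3 libraries. For dusp1, dusp2, dusp4, spry1, spry4 and spred1 all 3 libraries at 10 mM lie above all 3 vehicle libraries, and for dusp5 all 3 lie below. Of all tested genes, 20.2% and 20.4% do so.

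Dusp1 (ENSDARG00000100515) codes for the nuclear phosphatase that in mammals acts on p38, JNK and ERK and is an immediate early gene. Its level was 22.02, 31.4 and 27.8 CPM in vehicle, 28.5, 39.8 and 34.4 CPM at 1 mM, and 36.6, 79.8 and 107 CPM at 10 mM. The 10 mM libraries all lay above the vehicle libraries, but 10 mM replicate 1 lay within the range of the 1 mM libraries. The mean was 74.5 ± 35.5 CPM at 10 mM and 27.1 ± 4.73 CPM in vehicle (SD, n = 3 each), a log2 fold change of 1.46 (SE 0.30, adjusted p = 0.00461). Against the 34.2 ± 5.64 CPM at 1 mM, the 10 mM level was higher by 1.12 (SE 0.29, adjusted p = 0.0187) on the log2 scale, and that call was lost without 1 mM replicate 1 (adjusted p = 0.0548), without 10 mM replicate 2 (0.0507) or without 10 mM replicate 3 (0.0943). In bulk RNA of this kind, more cells that express a gene and more RNA per cell cannot be told apart.

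Dusp2 (ENSDARG00000098108), the gene of another inducible nuclear phosphatase, had the largest fold change of the 9. It stood at 4.85, 7.36 and 4.83 CPM in vehicle, 5.29, 14.9 and 10.2 CPM at 1 mM, and 15.5, 53.0 and 74.5 CPM at 10 mM. The lowest library at 10 mM was above the highest at 1 mM, 15.5 against 14.9 CPM. The log2 fold change was 3.07 (SE 0.49, adjusted p = 0.000963) at 10 mM against vehicle and 2.24 (SE 0.47, adjusted p = 0.00581) at 10 mM against 1 mM. Both calls held when any 1 library was left out. At 1 mM against vehicle the difference was 0.83 with a 95% confidence interval from -0.20 to 1.85, and the adjusted p was 0.554.

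Dusp4 (ENSDARG00000044688) codes for a nuclear phosphatase of ERK and JNK. Its level was 2.57, 3.04 and 4.31 CPM in vehicle, 3.76, 6.76 and 7.43 CPM at 1 mM, and 11.6, 10.5 and 19.7 CPM at 10 mM. The 10 mM libraries overlapped neither other group, while 1 mM replicate 1 lay within the vehicle range. The log2 fold change was 2.07 (SE 0.31, adjusted p = 0.000584) at 10 mM against vehicle and 1.22 (SE 0.30, adjusted p = 0.0126) at 10 mM against 1 mM, the second call being lost without 10 mM replicate 3 (0.89, adjusted p = 0.0655). At 1 mM against vehicle it was 0.85 (SE 0.31) with an adjusted p of 0.275. Among the 9 genes, dusp4 alone was below 0.05 there without adjustment, beside 1944 of 16766 tested genes. DESeq2 called 0 of the 9 there, beside 506 of all tested genes.

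Dusp6 (ENSDARG00000070914) codes for the cytoplasmic phosphatase selective for ERK, whose mRNA is a widely used readout of fibroblast growth factor (FGF) signalling in zebrafish embryos. It did not pass the test in any of the 3 comparisons. Its level was 14.7, 23.5 and 31.5 CPM in vehicle, 18.7, 27.8 and 27.7 CPM at 1 mM, and 26.8, 29.2 and 47.4 CPM at 10 mM. The groups overlapped, and only 10 mM replicate 3 lay outside the vehicle range. The log2 fold change at 10 mM against vehicle was 0.57 (95% confidence interval -0.02 to 1.16, adjusted p = 0.185). It passed with the replicate number as a block (0.59, adjusted p = 0.0314) and with no count filter (0.58, adjusted p = 0.0444), and it was 0.27 (adjusted p = 0.584) without 10 mM replicate 3.

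Dusp5 (ENSDARG00000019307), the gene of a nuclear phosphatase specific for ERK, ran the other way. It was a low gene, with 42 to 78 counts per vehicle library, 30 to 66 at 1 mM, and 16 to 26 at 10 mM. In CPM these were 1.70, 2.03 and 1.05 in vehicle, 0.794, 1.53 and 2.09 at 1 mM, and 0.395, 0.700 and 0.844 at 10 mM. All 3 libraries at 10 mM lay below all 3 vehicle libraries, as they did for 20.4% of all tested genes. The log2 fold change at 10 mM against vehicle was -1.31 (95% confidence interval -2.27 to -0.35), and the adjusted p of 0.0614 missed the threshold. It passed by DESeq2 (adjusted p = 0.0288), with no count filter (0.0366), with only the 6 libraries compared (0.0362), and without 1 mM replicate 1 (0.0365) or 1 mM replicate 3 (0.0416). Relative to 1 mM it was -1.19 (adjusted p = 0.0849), and -1.49 (adjusted p = 0.0352) without 1 mM replicate 1.

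**Figure D2:**
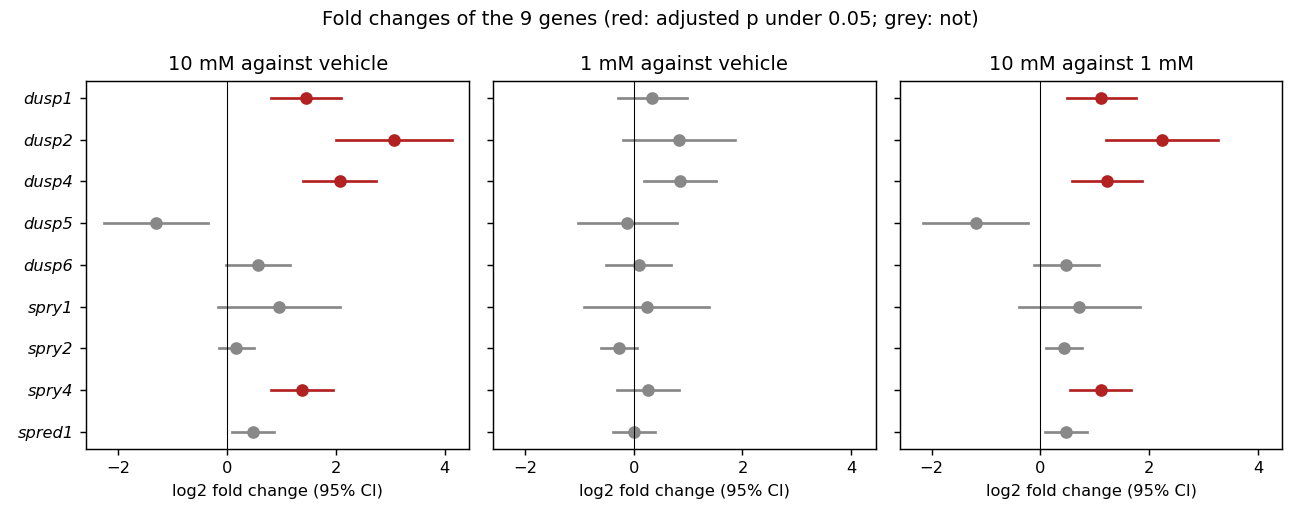
Log2 fold change of each of the 9 genes with its 95% confidence interval in each of the 3 comparisons, from 1 edgeR fit to 9 libraries. Red marks an adjusted p under 0.05. The same 4 genes are red at 10 mM against vehicle and at 10 mM against 1 mM, none is red at 1 mM against vehicle, and dusp5 is the one gene with an estimate below 0 in all 3 panels.

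Among the sprouty genes, which code for membrane-associated proteins that restrain Ras and Raf, spry4 (ENSDARG00000068732) was the one that rose. Its level was 7.83, 8.46 and 13.4 CPM in vehicle, 8.36, 14.998 and 12.5 CPM at 1 mM, and 18.8, 26.1 and 32.6 CPM at 10 mM. The 10 mM libraries lay above all 6 others. The log2 fold change was 1.38 (SE 0.26, adjusted p = 0.00297) at 10 mM against vehicle and 1.11 (SE 0.26, adjusted p = 0.0104) at 10 mM against 1 mM, with the second lost without 10 mM replicate 3 (0.91, adjusted p = 0.0516). At 1 mM against vehicle it was 0.27 with a 95% confidence interval from -0.30 to 0.84.

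Spry2 (ENSDARG00000078308) was the steadiest of the 9. It had 8.27, 9.29 and 8.07 CPM in vehicle, 7.86, 6.68 and 6.76 CPM at 1 mM, and 9.30, 10.5 and 9.02 CPM at 10 mM. The coefficient of variation within a group was 7.66 to 9.27%. The groups at 10 mM and in vehicle overlapped and the log2 fold change was 0.17, with a 95% confidence interval from -0.15 to 0.49 that leaves out the 1.38 of spry4 (adjusted p = 0.499). The 1 mM libraries lay below all 6 others, at -0.27 (adjusted p = 0.551) against vehicle, and 10 mM against 1 mM gave 0.43 (adjusted p = 0.0625, and 0.0344 by DESeq2).

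Spry1 (ENSDARG00000103985) was close to the floor of the count filter, with 10 to 12 counts per vehicle library, 8 to 15 at 1 mM and 20 to 21 at 10 mM. The 10 mM libraries (0.518, 0.538 and 0.682 CPM) lay above the vehicle libraries (0.329, 0.260 and 0.299 CPM), but the log2 fold change of 0.96 had a 95% confidence interval from -0.17 to 2.08 and an adjusted p of 0.243.

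Spred1 (ENSDARG00000041449), whose product holds Ras inactive together with neurofibromin, had 8.02, 9.50 and 8.32 CPM in vehicle, 7.88, 10.8 and 7.33 CPM at 1 mM, and 13.3, 10.4 and 12.4 CPM at 10 mM. The 10 mM libraries lay above the vehicle libraries and overlapped those at 1 mM. The log2 fold change at 10 mM against vehicle was 0.48 (95% confidence interval 0.10 to 0.86), with an adjusted p of 0.0828. It passed with only the 6 libraries compared (0.0239) and without 1 mM replicate 3 (0.0341). Relative to 1 mM it was 0.47 (adjusted p = 0.0858), and it passed without 1 mM replicate 2 (0.66, adjusted p = 0.0311).

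Counted by overlap, 6 of the 9 genes had all 3 libraries at 10 mM above all 3 vehicle libraries and 1 had all 3 below, beside 20.2% and 20.4% of all tested genes (40.6% in either direction). Of the 1 mM libraries against those in vehicle, 0 genes were above and 1 was below, beside 9.66% and 8.03% (17.7% in either direction). Between 10 mM and 1 mM, 5 were above and 0 below, beside 16.5% and 17.1% (33.7% in either direction).

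The 3 libraries at 10 mM were not alike. Dusp1 in 10 mM replicate 1 stood at 36.6 CPM, against a mean of 93.4 CPM in the other two 10 mM libraries, a log2 difference of -1.35. For dusp2 the difference was -2.04, with 15.5 against 63.7 CPM. For dusp4 it was -0.38 and for spry4 -0.64, and spred1 was the one gene of the 9 that was higher in replicate 1 (0.22). A low replicate 1 was not confined to 10 mM. In vehicle and at 1 mM too, replicate 1 was the lowest library for dusp1, dusp6 and spry4. For the other members it was not the lowest in every group. Among the 10 mM libraries dusp1, dusp2, dusp4, dusp5, dusp6, spry1 and spry4 were highest in replicate 3, the lane 8 library, which also had the lowest total count. Without that library dusp1 (log2 1.11, adjusted p = 0.0226), dusp2 (2.59, adjusted p = 0.00448), dusp4 (1.74, adjusted p = 0.0028) and spry4 (1.18, adjusted p = 0.017) kept their call at 10 mM against vehicle. Relative to 1 mM, dusp2 alone kept it (1.76, adjusted p = 0.0289). The count there was 1 of 9, beside 2129 calls over all genes, where all 9 libraries gave 4 of 9 and 3153.

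Over the 9 libraries, the genes whose log2 CPM ran closest to a member were found among 10937 named genes with a mean of at least 1 CPM. These Pearson correlations describe 9 points that fall into 3 dose groups and share library depth and any library effect. Because the genes were picked by these same correlations, a likeness to the member in single libraries follows from that choice. For dusp1 the closest were the AP-1 gene fosab (r = 0.972), the antiproliferative gene btg2 (0.961) and zgc:153115 (0.945). For dusp2 they were the AP-1 gene junba (0.968), tram1 (0.963) and btg2 (0.962). Dusp1 and dusp2 themselves correlated at 0.979. For dusp4 the closest were igfbp1a, whose product binds insulin-like growth factors (0.991), the glutaminase gene gls2b (0.985) and the tyrosyl-tRNA synthetase gene yars1 (0.979), and for spry4 yars1 (0.973), the stress-induced pseudokinase gene trib3 (0.968) and vps45 (0.964). Fosab had 0.849, 1.80 and 2.66 CPM in vehicle, 1.80, 4.73 and 1.52 CPM at 1 mM, and 6.22, 76.1 and 106 CPM at 10 mM, so that 10 mM replicate 1 was low here as it was for dusp1 and dusp2. Igfbp1a had 434, 500 and 566 CPM in vehicle, 555, 950 and 963 CPM at 1 mM, and 1553, 1648 and 2412 CPM at 10 mM, with 1 mM replicate 1 the lowest of its group, as it was for dusp4.

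The closest genes for the other members were cstf1 (0.966), ino80 (0.933) and gadd45ba (0.926) for dusp6, b3gnt5a (0.950), bbs10 (0.930) and tbc1d19 (0.925) for dusp5, and TBC1D9 (0.992), dera (0.973) and zbtb7b (0.971) for spry1. For spry2 they were sertad2b (0.954), fastk (0.952) and ncbp3 (0.936), and for spred1 RANBP2 (0.970), tmem47 (0.967) and anks1b (0.954). Dusp5 correlated negatively with each of the other 8 genes, from -0.269 with dusp6 to -0.759 with spry1.

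In the gene order of the RefSeq assembly GRCz12tu, 0 other RefSeq genes overlapped any of the 9. Of the adjacent protein-coding genes that were tested, ergic1 beside dusp1 was higher at 10 mM against vehicle (log2 1.17, adjusted p = 0.0249) and the cohesin gene smc3 beside dusp5 was lower (-0.57, adjusted p = 0.00988). No other tested neighbour was called in the main fit, where 17.2% of all tested genes were called. Leaving out 1 vehicle library, whichever it was, or replicate 1 or 3 of the 10 mM group ended the call of ergic1 (adjusted p 0.0552 to 0.0962), and leaving out 10 mM replicate 1 ended that of smc3 (0.0538). Uncalled were the other neighbours of dusp1 (neurl1b, -0.16) and dusp5 (si:dkey-286j15.3, -0.54), and those of dusp2 (izumo1, 0.58 and adra2b, -0.04) and spry4 (ndfip1l, 0.07). The tested neighbours of dusp6 (poc1b, -0.50), spry1 (ankrd50, -0.53), spry2 (ndfip2, -0.28) and spred1 (fam98b, -0.52 and meis2a, 0.40) were not called either.

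**Figure D3:**
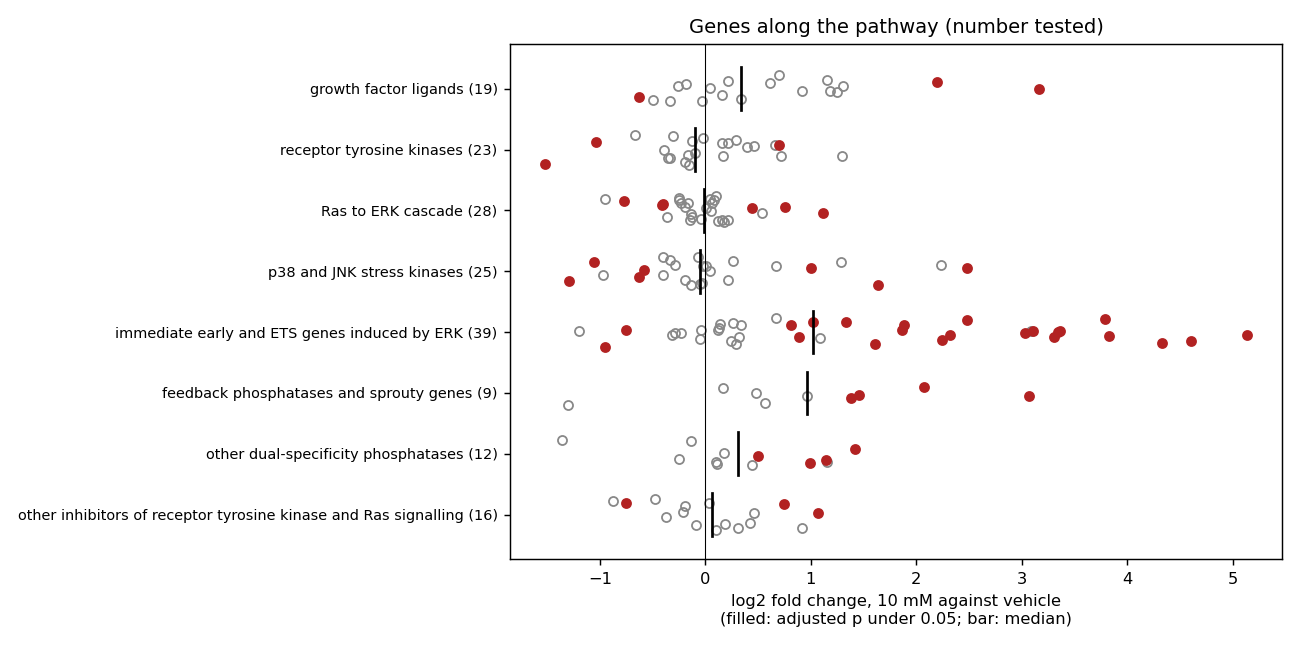
Log2 fold change at 10 mM against vehicle for the tested genes of 8 lists along the pathway, with the number tested in brackets. Each point is a gene, filled red where the adjusted p was under 0.05, vertical bars are medians and the vertical scatter within a row has no meaning. The medians of the immediate early genes (1.02) and of the feedback phosphatases and sprouty genes (0.96) lie to the right of 0, and those of the receptors (-0.10) and of the Ras to ERK cascade (-0.01) near it.

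The rest of the pathway was described from lists of ligands, receptors, kinases, targets and other inhibitors. Of 19 tested growth factor ligands, 2 were higher and 1 lower at 10 mM against vehicle (median log2 0.34), 15.8% beside 17.2% of all tested genes. The epidermal growth factor family gene hbegfb (ENSDARG00000031246) stood at 2.68 ± 0.557 CPM at 10 mM and 0.583 ± 0.219 CPM in vehicle (SD, n = 3 each; log2 2.20, SE 0.42, adjusted p = 0.0031), a call kept without any 1 library. Fgf4 had 20, 16 and 17 counts at 10 mM, and 2, 0 and 4 counts in vehicle (adjusted p = 0.0332). It passed the count filter only through its 10 mM libraries, so that being tested already required a difference, and leaving out 1 mM replicate 2 or any of the 6 libraries compared ended its call (adjusted p 0.0593 to 0.128). Btc was lower (log2 -0.63, adjusted p = 0.0482), a call that ended on leaving out 1 vehicle library, whichever it was, replicate 1 or 2 at 1 mM, or replicate 2 or 3 at 10 mM (0.0529 to 0.178).

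Of 23 tested genes listed as receptor tyrosine kinases 1 was higher and 2 were lower (median -0.10), 13.04% beside 17.2% of all tested genes. They were pdgfrb (log2 0.70, adjusted p = 0.0439), the FGF decoy receptor gene fgfrl1b (-1.52, adjusted p = 0.0253) and kita (-1.04, adjusted p = 0.0384). A decoy receptor is not a kinase, so the fall of fgfrl1b is not read as that of a receptor kinase. Pdgfrb lost its call on leaving out 1 mM replicate 2 or any of the 6 libraries compared (0.0517 to 0.166), fgfrl1b on leaving out replicate 1 or 2 in vehicle or any 10 mM library (0.0533 to 0.115), and kita on leaving out any in vehicle or replicate 1 or 2 at 10 mM (0.0789 to 0.15). The receptor count was 0 without 10 mM replicate 1 or vehicle replicate 1 or 2, beside 1915, 1978 and 1892 calls over all genes. It was 1 without 10 mM replicate 3 or vehicle replicate 3, beside 1988 and 1854. Without 1 mM replicate 3 it was 7, beside 4066 calls over all genes, where all 9 libraries gave 2878. Fgfrl1b was also lower at 10 mM against 1 mM (-1.84, adjusted p = 0.00912), and kept that call without any 1 library, as did the hepatocyte growth factor-like receptor gene mst1ra (-0.99, adjusted p = 0.00334). Mst1ra, not called at 10 mM against vehicle, had 15.7, 11.5 and 12.2 CPM in vehicle, 26.9, 17.5 and 17.0 CPM at 1 mM, and 10.3, 10.8 and 9.77 CPM at 10 mM. With no count filter, edgeR called it higher at 1 mM against vehicle (0.64, adjusted p = 0.0429).

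Of 28 genes of the Ras to ERK cascade 3 were higher and 3 lower at 10 mM against vehicle (median -0.01), 21.4% beside 17.2% of all tested genes. Higher were the genes of the MAPK-interacting kinases, mknk2a (log2 1.12, SE 0.24, adjusted p = 0.00683), mknk2b (0.75, adjusted p = 0.0184) and mknk1 (0.44, adjusted p = 0.0232). Lower were the Raf kinase genes braf (-0.77, SE 0.19, adjusted p = 0.013) and araf (-0.41, adjusted p = 0.0334), and the ERK5-activating kinase gene map2k5 (-0.40, adjusted p = 0.0493), which the naming rule did not take. Of these mknk2a kept its call without any 1 library. It had 18.0, 7.64 and 14.2 CPM at 10 mM, and 8.15, 7.75 and 8.16 CPM at 1 mM. At 10 mM against 1 mM it was not called in the main fit, but passed without 10 mM replicate 2 (adjusted p = 0.0019). Braf lost its call without 10 mM replicate 1 (adjusted p = 0.0619). Mknk2b lost it on leaving out replicate 1 or 2 in vehicle or 10 mM replicate 3 (0.0713 to 0.088). Mknk1 lost it on leaving out any in vehicle or replicate 1 or 3 at 10 mM (0.0567 to 0.117). Araf lost it on leaving out any in vehicle, 1 mM replicate 2, or replicate 1 or 3 at 10 mM (0.0507 to 0.137), and map2k5 on leaving out 1 mM replicate 2 or any of the 6 libraries compared (0.0515 to 0.183). The cascade count was 2 without 10 mM replicate 1 or 3 or vehicle replicate 1 or 2, beside 1892 to 1988 calls over all genes. It was 3 without vehicle replicate 3, beside 1854, where all 9 libraries gave 2878.

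At 1 mM against vehicle the phosphatase gene ptpn11b, a positive relay between receptors and Ras, was the 1 gene called in these 8 lists by edgeR in the main fit (8.56 ± 0.725 CPM at 1 mM and 15.5 ± 1.47 CPM in vehicle, SD, n = 3 each; log2 -0.86, SE 0.14, adjusted p = 0.0162), beside 0.984% of all tested genes. That call was lost without vehicle replicate 1 (0.0813), vehicle replicate 2 (0.111) or 1 mM replicate 2 (0.0675). Relative to 1 mM, ptpn11b was higher at 10 mM (log2 0.62, adjusted p = 0.00873), a comparison that shares its 1 mM libraries with the first. By DESeq2, 1 of 28 genes of the cascade, 1 of 19 ligands and 1 of 39 immediate early genes passed at 1 mM against vehicle, beside 506 of 16766 tested genes.

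The p38 and JNK kinases are substrates of some of these phosphatases. Of 25 genes of their branches, 3 were higher and 4 lower at 10 mM against vehicle (median -0.05), 28% beside 17.2% of all tested genes. Higher were the stress-inducible genes gadd45aa (13.3 ± 5.82 CPM at 10 mM and 2.38 ± 0.819 CPM in vehicle, SD, n = 3 each; log2 2.48, adjusted p = 0.000192) and gadd45ga (log2 1.64, adjusted p = 0.0045), and mapkapk2a (1.01, adjusted p = 0.000777), whose product is the kinase downstream of p38. Lower were the p38-activating kinase gene map2k6 (6.73 ± 1.60 CPM at 10 mM and 16.5 ± 0.340 CPM in vehicle, SD, n = 3 each; log2 -1.29, adjusted p = 0.000316), the apoptosis signal-regulating kinase gene map3k5 (-0.63, adjusted p = 0.00522), gadd45bb (-1.06, adjusted p = 0.00581) and the p38 gene mapk14a (-0.59, adjusted p = 0.0332). Mapk14a and, in this comparison, gadd45bb were named after their values were seen. Mapk14a lost its call on leaving out any in vehicle or replicate 1 or 3 at 10 mM (0.075 to 0.119) and the other 6 kept theirs without any 1 library.

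Immediate early genes and ETS factor genes are known targets of ERK signalling. Of 39 tested, 20 were higher and 2 lower at 10 mM against vehicle (median 1.02), 56.4% beside 17.2% of all tested genes. At 10 mM against 1 mM, 20 were higher and 3 lower (median 0.98), 59.0% beside 18.8% of all tested genes. The list was chosen with earlier results of these data known. Egr4 (16, 30 and 20 counts at 10 mM, at most 8 in any other library) passed the count filter only through its 10 mM libraries and was not called. The small Maf gene maff had 73.6 ± 9.49 CPM at 10 mM and 19.96 ± 1.93 CPM in vehicle (SD, n = 3 each; log2 1.88, SE 0.14, adjusted p = 8.28e-06). The zinc finger gene egr2a rose by 4.32 (SE 0.41, adjusted p = 2.83e-05) on the log2 scale, and the AP-1 genes fosl1a by 3.83 (SE 0.34, adjusted p = 2.09e-05), fosl2 by 2.48 (SE 0.26, adjusted p = 5.64e-05) and jun by 1.61 (SE 0.16, adjusted p = 4.51e-05). Of the 20, 19 kept their call at 10 mM against vehicle under every alternative that gave a value, and egr3 lost it on leaving out any in vehicle or 10 mM replicate 3 (0.0617 to 0.165). The 2 lower, named after their values were seen, were zfp36l1b (-0.76, adjusted p = 0.00174) and the ternary complex factor gene elk4 (-0.95, adjusted p = 0.0227), the second lost on leaving out replicate 1 or 2 in vehicle or 10 mM replicate 1 or 2 (0.0596 to 0.114). For 1 mM relative to vehicle edgeR called 0 of the 39. At an unadjusted p under 0.05, 4 were higher and 0 lower, beside 1944 of 16766 tested genes in either direction. DESeq2 called 1, egr2a (adjusted p = 0.0142). With no count filter, edgeR called egr2a (adjusted p = 0.00154) and junbb (adjusted p = 0.0229), both higher.

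Of the 20 immediate early genes that rose, 15 were lowest in 10 mM replicate 1 and 19 were highest in 10 mM replicate 3 among the 10 mM libraries, where 29.9% and 34.7% of all tested genes were. Egr1, named after its values were seen, had 72.1, 227 and 385 CPM at 10 mM, and 7.45, 23.2 and 36.4 CPM in vehicle (log2 3.35, SE 0.62, adjusted p = 0.00261). In vehicle too, egr1, fosab and myca were lowest in replicate 1 and highest in replicate 3. By contrast egr2a, fosl1a, fosl2, jun and maff were highest in vehicle replicate 1.

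The ETS genes etv4, etv5a and etv5b, which with dusp6 and spry4 are known FGF targets in zebrafish embryos, were named after their values were seen. They were not called at 10 mM against vehicle. Etv4 had 0.395, 0.673 and 0.130 CPM at 10 mM, and 0.712, 1.04 and 1.05 CPM in vehicle (log2 -1.20, 95% confidence interval -2.32 to -0.08, adjusted p = 0.139). It was lower at 10 mM against 1 mM (-1.78, adjusted p = 0.03), a call lost with only the 6 libraries compared (0.0652) and on leaving out replicate 2 or 3 at 1 mM or replicate 1 or 3 at 10 mM (0.0501 to 0.102). Etv5a was at 0.25 (95% confidence interval -0.56 to 1.05) and etv5b at 0.34 (-0.04 to 0.72) at 10 mM against vehicle.

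**Figure D4:**
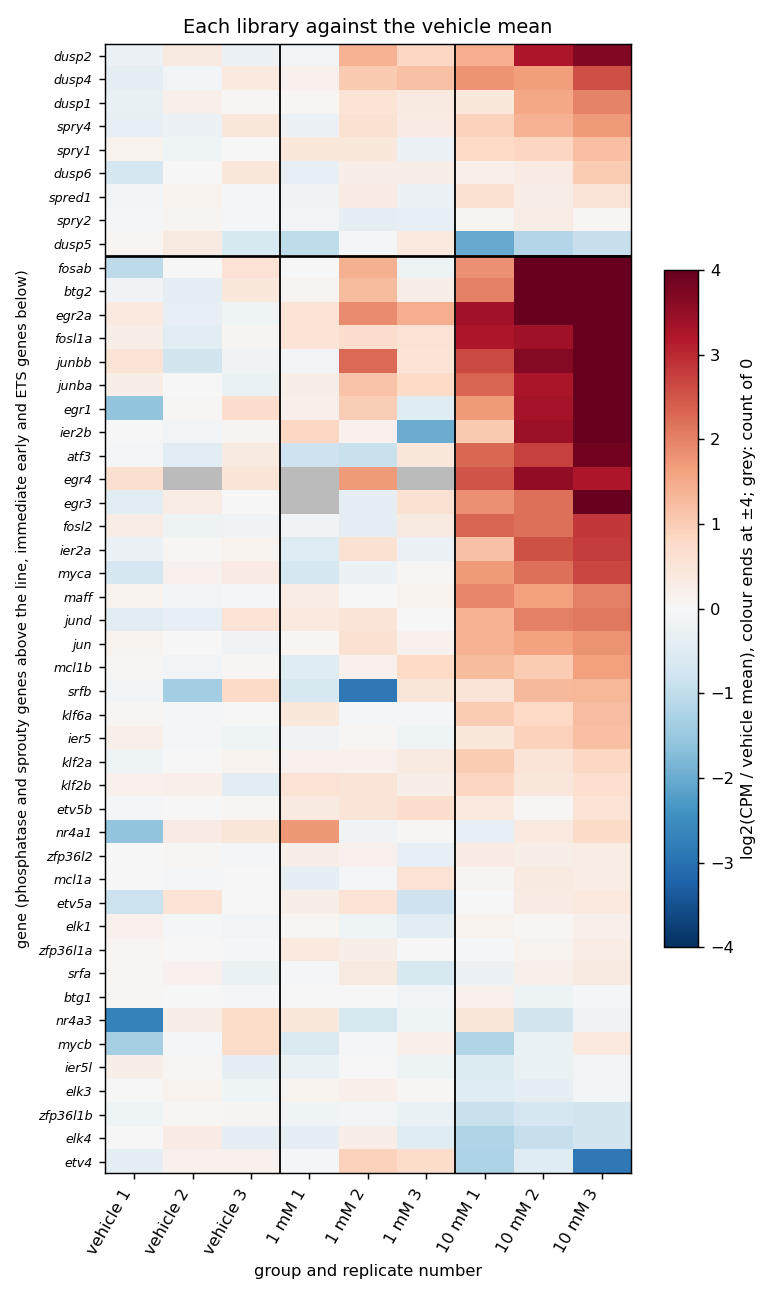
Level of each gene in each library relative to the mean of the 3 vehicle libraries (log2, red higher, blue lower, colours end at 4 in either direction, grey for a count of 0). The 9 phosphatase and sprouty genes are above the black line and 39 immediate early and ETS genes below it, each set ordered by its change at 10 mM against vehicle. Among the 10 mM libraries, replicate 1 is paler than replicate 3 for dusp1, dusp2, fosab, btg2 and egr1, and dusp5 and etv4 are blue in all 3.

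Other genes of the dual-specificity phosphatase family were also measured, and some of them, such as dusp11, do not code for MAPK phosphatases. Of 12 tested, 4 were higher and 0 lower at 10 mM against vehicle (median 0.31), 33.3% beside 17.2% of all tested genes, and 0 were lower at an unadjusted p under 0.05 or by DESeq2. Dusp8a (ENSDARG00000009299), whose product acts on JNK and p38 in mammals, had 10.2 ± 1.87 CPM at 10 mM and 3.80 ± 0.291 CPM in vehicle (SD, n = 3 each; log2 1.42, SE 0.21, adjusted p = 0.000535). Dusp7 (ENSDARG00000101413), whose product is a cytoplasmic ERK phosphatase of the same subfamily as that of dusp6, had 61.4 ± 1.81 CPM at 10 mM and 43.3 ± 2.53 CPM in vehicle (SD, n = 3 each; log2 0.50, SE 0.11, adjusted p = 0.00603). Dusp22a (1.15, adjusted p = 0.0074) and dusp11 (0.99, adjusted p = 0.0316) were the other two. Dusp22a had 6.24, 5.59 and 4.21 CPM in vehicle, 9.47, 6.11 and 12.3 CPM at 1 mM, and 14.4, 9.29 and 11.9 CPM at 10 mM, so that the 2 dose groups overlapped. With no count filter, edgeR called dusp22a higher at 1 mM against vehicle (0.80, adjusted p = 0.035). Dusp8a and dusp7 were also higher at 10 mM against 1 mM, by 1.66 (adjusted p = 0.000242) and 0.83 (adjusted p = 0.000276). Dusp11 lost its call on leaving out any in vehicle or replicate 1 or 2 at 10 mM (0.0802 to 0.106) and the other 3 kept theirs without any 1 library.

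Of 16 tested genes listed as other inhibitors of receptor and Ras signalling, 2 were higher and 1 lower at 10 mM against vehicle (median 0.07). That was 18.8% beside 17.2% of all tested genes, with 70.8% of the list matched. The second spred gene, spred2a (ENSDARG00000052435), had 19.8 ± 1.59 CPM at 10 mM and 11.8 ± 1.18 CPM in vehicle (SD, n = 3 each; log2 0.74, SE 0.15, adjusted p = 0.00494), and kept its call without any 1 library. Errfi1a, the gene of an inhibitor of the epidermal growth factor receptor, was higher by 1.07 (SE 0.28, adjusted p = 0.0184), a call lost on leaving out replicate 1 or 2 in vehicle or 10 mM replicate 3 (0.0737 to 0.0933). The 1 lower gene of the list, flrt3 (-0.75, SE 0.14, adjusted p = 0.00271), codes for a protein that binds FGF receptors. It is not an established inhibitor, so its fall is not read as that of an inhibitor.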

How the data were processed

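Per the submitters' processing notes, HISAT2 and featureCounts were the authors' tools and GRCz11 the genome build. Their versions, the annotation release, strand setting and multi-mapping rule were not stated in the sources used here. Values in the deposited table are raw counts per gene, not normalised. Of the counts from 1 to 20 in a library, 75.2 to 82.9% were even, against 48.7 to 51.0% of the high ones, so halved counts were tried. Groups follow the labelled treatment, and the labels do not define a replicate (animals, pools or clutches), so p-values measure only library-to-library spread, which may be technical.

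Low genes were dropped by filterByExpr (minimum count 10, minimum total 15). In edgeR (version 4.0.16, under R 4.3.3) the 9 libraries, scaled by TMM, entered 1 fit with group as its term, and the 3 pairs of groups were compared by the quasi-likelihood test, two-sided, adjusted over all tested genes by Benjamini-Hochberg, with a threshold of 0.05. Standard errors come from the log2 fold change and its F statistic. The fit was tested on simulated data. Alternatives were DESeq2 (version 1.42.0) size factors and test, no count filter, at least 5 CPM in 3 libraries, the 6 compared libraries only, the replicate number as a block, halved counts, scaling without mitochondrial and the 20 most abundant genes, and leaving out each library. Genes named from each list were those called if 5 or fewer, otherwise the 5 with the smallest p, and not all are reported. The members, lists and tests were chosen with earlier results of these data known. List names were matched to the deposited names, also in other letter case, or to a table of Ensembl symbols. Sequences were not used here.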

Additional observations from a re-analysis of the deposited data

How the results depend on the processing

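Of 450 values of the 9 genes under the alternatives, 433 kept their direction and side of the threshold or were not called in either fit, 5 lost a call, 12 gained one and 0 reversed. At 10 mM against vehicle the number of the 9 called was 4 to 6 when 1 library was left out and 4 to 6 otherwise. At 10 mM against 1 mM it was 1 to 5 and 4 to 5, and at 1 mM against vehicle 0 throughout. Over all genes, leaving out 1 library gave 1854 to 4066 calls at 10 mM against vehicle, 21 to 202 at 1 mM against vehicle and 1963 to 3902 at 10 mM against 1 mM, where all 9 libraries gave 2878, 165 and 3153. For 1 mM against vehicle the count was 506 by DESeq2, 487 with no count filter, 96 with at least 5 CPM in 3 libraries and 103 with only the 6 compared libraries; the cause was not tested. With the replicate number as a block it was 109, and 2455 and 2626 in the other comparisons. The deviations of same-numbered libraries from their group means correlated at -0.111 to 0.056 over all groups. Between 10 mM and vehicle the 3 same-numbered pairs were at 0.040 to 0.056 and the other 6 pairs at -0.037 to -0.013. No same-numbered pair exceeded 0.1 and, over all groups, not every library correlated best with its own number. Correlations over all genes cannot decide whether single genes followed the number. With the block, dusp6 passed at 10 mM against vehicle (adjusted p = 0.0314). Gadd45ba passed there as well (0.000448 with the block, 0.0668 in the main fit). It had 32.5, 84.1 and 118 CPM in vehicle, 43.5, 63.5 and 101 at 1 mM, and 102, 184 and 285 at 10 mM. Other genes lost their call with the block, such as araf (0.0645) and mapk14a (0.0643). Whether single genes followed the number was not tested. The numbers were not used as pairs in the main fit, and the labels do not say whether they mark pairs. List counts without 1 mM replicate 3, 10 mM replicate 1 or 10 mM replicate 3 were chosen after the data were seen. The genes with the fewest counts, spry1 and dusp5 with at most 21 and 78 per library, had standard errors of 0.52 and 0.44 at 10 mM against vehicle.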
